A study of Mus musculus with 21 samples.

Results

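The genes of striated muscle Ttn, Neb, Tnni2, Ryr1, Dmd, Des, Mybpc2, Actn2, Myh3 and Tnnt3, 10 in all, were followed through 4 lists of regions whose DNA methylation signal differed in cultured mouse synovial fibroblasts. A region was taken as belonging to a gene when the authors' annotation named that gene, and 60 of the 49307 listed regions did. These were 18 of 13125 regions at 3 weeks of age, 17 of 11975 at 8 weeks, 5 of 7309 at 11 weeks and 20 of 16898 in the comparison of TNF-treated with untreated cells. Regions were listed for 8 of the 10 genes. Des, the muscle intermediate filament gene, and Tnnt3, which encodes troponin T of fast fibres, had no listed region in any of the 4 tables, and regions that were not listed have no value here.

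The sarcomere is the contractile unit of striated muscle. Titin (Ttn) spans from its Z-disc to its M-band, nebulin (Neb) runs along the thin filament, alpha-actinin 2 (Actn2) crosslinks actin at the Z-disc, and myosin with its binding proteins forms the thick filament. Depolarization is turned into contraction when the ryanodine receptor Ryr1 releases calcium, to which the troponins respond, and dystrophin (Dmd) ties the cytoskeleton to the muscle cell membrane. Fibroblasts are not known to build sarcomeres, so in these cells the genes are read here as stretches of methylated DNA and not as measures of contraction. No RNA was measured in the data used.

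The fibroblasts were cultured from joints of mice of CBA x C57BL/6J background and used at passages 4 to 5. Tg197 mice overproduce TNF from a human transgene, which leads to chronic arthritis, and wild-type (WT) mice served as controls. There were 7 groups of 3 libraries: Tg197 and WT at 3, at 8 and at 11 weeks, and WT at 8 weeks with added TNF, whose dose and duration the labels do not give. All 7 groups shared strain and passage, and the sex of the mice is not stated. Methylated DNA was captured with a methyl-CpG-binding protein, so that a region gives more reads when it holds more CpGs as well as when more of them are methylated.

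Each library has 1 value per region, in reads divided by a size factor of that library (normalized reads). A library held 2230884 to 2875554 reads in the regions of the 3-week table, 695108 to 1143699 in those of the 8-week table, 385155 to 544797 in those of the 11-week table and 1285306 to 1858694 in those of the TNF table. Depth outside listed regions is unknown. TNF-treated libraries 1 and 2 were identical in every region and entered as 1 library, which left n = 2 against n = 3. The 8-week and TNF tables use the same WT libraries: all 257 regions with the same coordinates in both had the same WT reads. The labels do not say that libraries of a group came from separate animals or cultures, so p-values reflect the spread between libraries, which may be technical. As DNA capture cannot show expression, the cell type was not checked by its markers: 4 of 12 synovial fibroblast markers, 3 of 8 macrophage markers and 2 of 7 myogenic markers had a listed region. Libraries are numbered by their position in the tables, and coordinates are in mm9.

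Gained and lost, or rose and fell, mean that a region passed limma's moderated test on log2(value + 1) at an adjusted p under 0.05 (Benjamini-Hochberg over all regions of its table), with the higher value in Tg197 or TNF-treated cells for a gain. Log2 fold changes are on that scale and carry their standard error (SE). Since the authors had listed the regions for a difference between the same groups, every such test is a retest of selected regions, and most listed regions pass it. Counts of muscle gene regions are therefore set beside the share of all listed regions that pass.

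Promoter sequence was given for 7 of the 10 genes in RefSeq (GRCm38.p6, from 250 bases before to 50 after the start). The Ryr1 window is shown because the 2 Ryr1 regions nearest to the gene's start, described below, are the listed regions closest to a promoter whose sequence was at hand. It lies at chr7:29125102-29125401 on the minus strand, and capitals mark its 9 CpG dinucleotides, the sites the capture protein binds when methylated.
Ryr1 promoter: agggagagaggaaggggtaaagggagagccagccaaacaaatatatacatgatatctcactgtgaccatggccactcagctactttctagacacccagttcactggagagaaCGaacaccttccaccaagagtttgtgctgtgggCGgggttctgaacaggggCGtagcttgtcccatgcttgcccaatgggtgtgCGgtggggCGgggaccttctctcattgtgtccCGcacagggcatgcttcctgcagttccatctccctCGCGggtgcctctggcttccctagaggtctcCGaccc
By the authors' distances the Ryr1 regions lie kilobases inside the gene, and none covers this window. The other windows held 11 CpGs at Des, 8 at Ttn, 9 at Mybpc2, 4 at Myh3 and 19 at Actn2, and the Dmd gene has 2 windows with 2 and 14. The median over all 32851 promoter windows was 7. The letters CAGCTG, a form of the E-box that myogenic factors bind, read the same on both strands and occurred in the Des window alone of these 8, against 16.3% of all windows.

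Nearly all muscle gene regions were classed as gene body. In the authors' annotation 59 of the 60 (98.3%) were gene body regions, against 87.9% of the 25390 listed regions with a gene name. The exception was the Tnni2 region, which was classed as a promoter region but by its distance also lay past the gene's start. Ttn held 30 of the 60 regions within 278.6 kb of gene, while Dmd held 13 within 2256 kb. Ryr1 held 8, Actn2 3, Neb and Mybpc2 2 each, and Tnni2 and Myh3 1 each. Ttn and Dmd, the longest of the listed genes, thus fill most of this list, but the counts did not follow length. Per 100 kb there were 10.8 regions at Ttn, 8.71 at Mybpc2, 6.57 at Ryr1 and 4.21 at Actn2. Myh3 had 4.17, Neb 0.99 and Dmd 0.58, while the 1 region of Tnni2, a gene of 1.94 kb, gave 51.6. Regions that overlap between comparisons were counted in each. The number of regions of a gene says nothing by itself about muscle.

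At 3 weeks 6 of the 18 regions rose and 8 fell, and the libraries of the 2 groups did not overlap at 14. Of all regions listed at 3 weeks, 40.3% rose, 44.7% fell and 86.1% did not overlap. At 8 weeks 1 of 17 rose, 2 fell and 10 did not overlap, where 17.4% of all listed regions rose, 36.6% fell and 69.6% did not overlap. At 11 weeks 3 of 5 rose, 1 fell and 4 did not overlap, beside 49.7%, 28.2% and 83.7% of all listed regions. With TNF 11 of 20 rose, 7 fell and 19 did not overlap, beside 29.8%, 64.1% and 95.8%. The median log2 fold change of the muscle gene regions was -0.13 at 3 weeks, 0.45 at 8 weeks, 0.93 at 11 weeks and 0.45 with TNF. Over all listed regions it was -0.12, -0.22, 0.76 and -1.08 in the same order. Muscle gene regions thus sat near the table's median at 3 and 11 weeks, and above it at 8 weeks and with TNF.

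The scaling of the libraries bears on the counts. The median log2 ratio of a library over the listed regions differed between groups by 0.28 at 11 weeks and by -0.85 with TNF. In the other tables the difference was under 0.1. Rescaling set this median to 0 in each library. The share of gains among all regions that passed then went from 63.8% to 47.5% at 11 weeks and from 31.7% to 77.5% with TNF. For the muscle gene regions the count became 6 gained and 5 lost at 3 weeks, 5 gained and 2 lost at 8 weeks, 2 gained and 2 lost at 11 weeks, and 13 gained and 2 lost with TNF. The direction of 1 of the 60 regions turned, a Ttn region at 3 weeks whose change was close to 0.

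**Figure D1:**
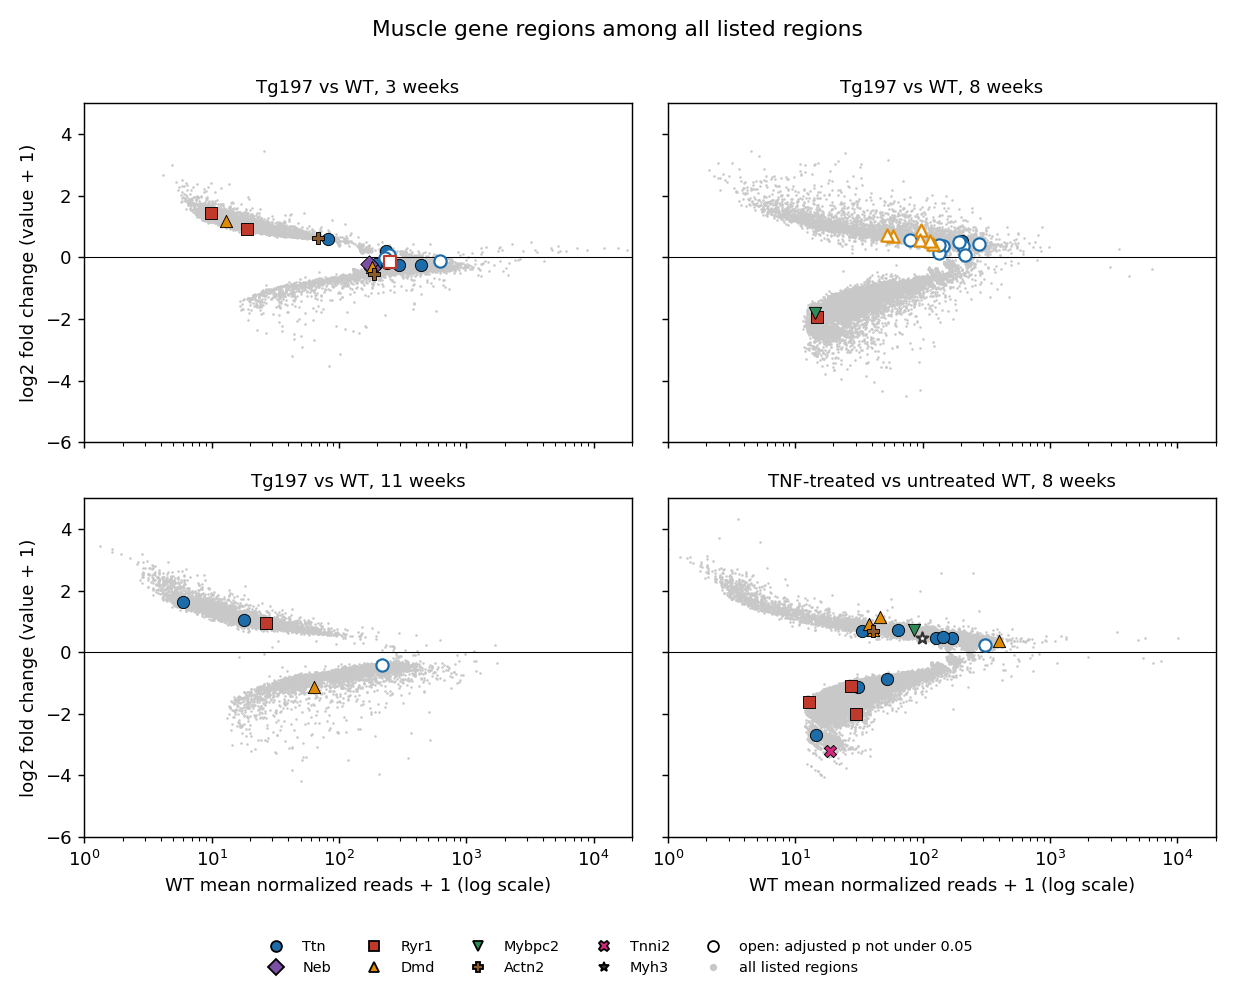
Log2 fold change (value + 1) of every listed region against its mean in WT cells (normalized reads + 1, log axis), 1 panel per comparison, with muscle gene regions in colour and all listed regions in grey (2 regions at 3 weeks and 4 in the TNF table lie beyond the axes). With TNF the gained muscle gene regions have WT means of 32.3 to 394 and the lost ones of 11.9 to 52.1.

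The direction of change went with read level, and not in the same way in each table. With TNF the 11 gained regions had WT means between 32.3 and 394 normalized reads and the 7 lost regions between 11.9 and 52.1. At 8 weeks, too, the region that rose had the higher WT mean (203.8) and the 2 that fell the lower ones (13.4 and 13.8). At 3 weeks it was the reverse, with WT means of 8.96 to 233.1 for the 6 gained regions and of 172 to 437.9 for the 8 lost. At 11 weeks the 3 gained regions had WT means of 4.95 to 25.7 and the lost region 63.2. The part of read level in these directions was not tested.

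Ttn was the only muscle gene with several regions in every comparison. At 3 weeks 2 of its 9 regions rose and 4 fell, at 8 weeks 1 of 9 rose and none fell, at 11 weeks 2 of 3 rose, and with TNF 5 of 9 rose and 3 fell. Of all 30 regions 16 lay in the last 25% of the gene, where the A-band and M-band end of titin is encoded, and 7 in the first 25%. Of the rest, 5 lay in the stretch from 25% to 50% and 2 in that from 50% to 75%.

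The larger Ttn change at 3 weeks was a gain at 76568351 to 76568850 on chromosome 2, 252 kb from the start. Tg197 libraries 1 to 3 had 120.96, 119.75 and 124.62 normalized reads there, and WT libraries had 71.36, 85.06 and 86.34. All Tg197 values were above all WT values, and the mean went from 80.9 ± 8.30 to 121.8 ± 2.54 (SD, n = 3 each; log2 fold change 0.59, SE 0.11, limma adjusted p = 0.00166). A smaller loss lay nearby, at 76573901 to 76574800. There Tg197 libraries had 374.75, 362.07 and 374.86 normalized reads against 453.53, 448.84 and 411.25 in WT (log2 fold change -0.24, SE 0.06, adjusted p = 0.00366). Neighbouring stretches of 1 gene thus moved in opposite directions in the same libraries. At 76757251 to 76757800, 63.1 kb from the start, Tg197 had 239.75, 263.06 and 246.28 against 313.62, 300.43 and 269.24, with no overlap (log2 fold change -0.24, limma adjusted p = 0.00882).

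The other 3 Ttn calls at 3 weeks were small, and each was lost on leaving out any 1 of several libraries. The gain at 76552401 (log2 fold change 0.20) did not pass without Tg197 library 2 or 3 or WT library 3, with adjusted p from 0.0762 to 0.0959. The loss at 76561051 (-0.21) did not pass without any 1 of Tg197 libraries 1 and 3 and WT libraries 2 and 3, nor after rescaling (adjusted p = 0.102). The loss at 76580401 (-0.17) did not pass without any 1 of Tg197 libraries 1 and 2 and WT libraries 1 and 2, nor after rescaling (adjusted p = 0.102). The other 3 regions did not pass with all libraries, at log2 fold changes of -0.10, 0.08 and -0.03. For the last, at 76807751, the authors' deposited table gives a log2 fold change of -0.03 with a p-value of 5.02e-11, while Tg197 libraries (237.59, 222.52 and 214.63) and WT libraries (217.85, 240.71 and 228.34) overlapped. Within the range of WT means of the Ttn regions at 3 weeks (80.9 to 619), 9.498% of 7065 listed autosomal regions had a value above 0, as had 3 of the 9 Ttn regions.

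At 8 weeks all 9 Ttn regions had a higher mean in Tg197 cells, and in 7 of them the groups did not overlap. Only the region at 76807451 to 76808200, 12.8 kb from the start, passed. Tg197 libraries had 335.35, 242.19 and 310.35 normalized reads there and WT libraries 188.56, 200.75 and 222.16 (log2 fold change 0.53, SE 0.19, limma adjusted p = 0.0485). This call was lost without any 1 of 5 libraries (all except Tg197 library 2), at adjusted p from 0.0681 to 0.1615. The other 8 regions had log2 fold changes from 0.08 to 0.56 and adjusted p from 0.0503 to 0.640. Over the 9 regions, the log2 ratio of a library to the WT mean had a median of 0.50 in Tg197 library 1, 0.25 in library 2 and 0.36 in library 3. Tg197 library 2 was thus the lowest of the 3, and without it 7 of the 9 Ttn regions passed. Read level again went with direction: in the range of WT means of these regions (79.2 to 278), 66.0% of 2937 listed autosomal regions lay above 0, and 358 of the 2937 were gained and 433 lost.

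At 11 weeks, when reads were fewest, 3 Ttn regions were listed. The region at 76745901 to 76746500, 74.4 kb from the start, had 36.70, 36.65 and 34.49 normalized reads in Tg197 and 17.68, 15.82 and 17.54 in WT. The groups were well apart and the value rose (log2 fold change 1.04, SE 0.26, limma adjusted p = 0.0219). The region at 76600851 to 76601400 rose from 8.16, 2.79 and 3.90 in WT to 12.77, 12.60 and 25 in Tg197 (log2 fold change 1.61, SE 0.51, adjusted p = 0.0222), on 13 reads in WT. At 76739101 the WT libraries had 293.71, 195.45 and 164.68 and the Tg197 libraries 154.78, 167.22 and 153.46, so that 1 WT library stood apart and the region did not pass (log2 fold change -0.42, adjusted p = 0.144). After rescaling it passed as lost, at -0.69 (adjusted p = 0.0469). Without Tg197 library 1 or 3 or WT library 2, none of the 5 muscle gene regions passed at 11 weeks, although 4 kept an unadjusted p under 0.05 in limma each time.

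With TNF the Ttn regions nearest the start rose, and those further in moved both ways. The 4 regions from 12.6 to 110 kb from the start all rose, by 0.46 to 0.73 on the log2 scale. At 76807751 to 76808250 TNF-treated libraries had 191.13 (libraries 1 and 2) and 210.77 normalized reads and WT libraries 148.12, 135.59 and 147.44, without overlap (log2 fold change 0.48, SE 0.12, limma adjusted p = 0.0109). Further in, the regions at 172, 219 and 239 kb fell and that at 201 kb rose. Position went with read level here. The 4 regions nearest the start had WT means of 63.0 to 170 normalized reads. The 3 that fell had 30.1, 13.5 and 52.1, and the one that rose at 201 kb had 32.3. The parts of position and read level were not tested. At 76601601 to 76602100 the TNF-treated libraries had 3.98 and 0 normalized reads and the WT libraries 17.12, 12.19 and 11.06 (log2 fold change -2.67, SE 0.68, adjusted p = 0.0109). That loss rests on 4 reads against 45, a 6.18-fold lower value with a 95% exact counting interval from 2.255 to 23.7, and it passed after rescaling (-2.14, adjusted p = 0.0290). At 76581251 the values were 23.89 and 32.24 against 47.95, 57.89 and 50.38 (log2 fold change -0.88, adjusted p = 0.0109), but after rescaling this loss was -0.05 (adjusted p = 0.883). The loss at 76648101 (log2 fold change -1.14) was -0.33 after rescaling (adjusted p = 0.374). The region farthest in, at 243 kb, did not pass (log2 fold change 0.22, adjusted p = 0.0584), but passed with limma voom (adjusted p = 0.0234) and after rescaling (1.07, adjusted p = 0.00272), as well as without WT library 3 and with each identical library counted (adjusted p = 0.0354 and 0.0121).

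Of the 8 Ttn calls with TNF, 5 were lost on leaving out 1 library. Those at 76619351 and 76648101 did not pass without TNF-treated library 1 or WT library 2, and that at 76752301 not without TNF-treated library 1. The gains at 76710401 and 76716701 did not pass without TNF-treated library 3. Leaving out a TNF-treated library leaves 1 on that side, whose spread is then taken from the WT libraries.

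**Figure D2:**
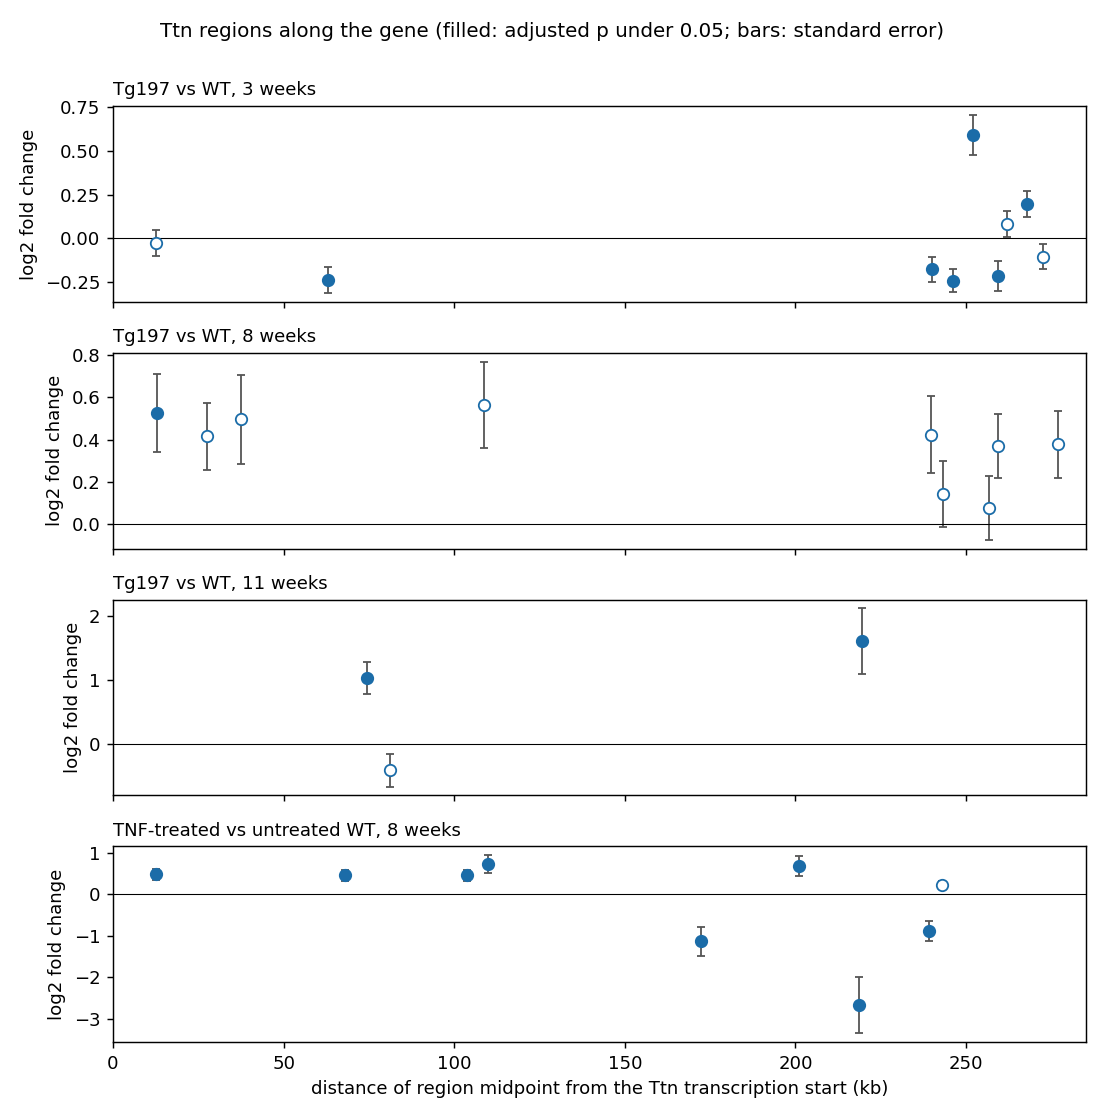
Log2 fold change (value + 1) of each Ttn region, with its standard error, against the distance of the region's midpoint from the transcription start in kb, 1 panel per comparison with its own scale. Filled points passed at an adjusted p under 0.05. At 8 weeks all 9 regions lie above 0 and 1 is filled, and with TNF the 4 regions nearest the start lie between 0.46 and 0.73.

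Some Ttn regions were listed in more than 1 table. The stretch near 12.6 kb from the start was listed in 3: it rose at 8 weeks (0.53) and with TNF (0.48), and stood at -0.03 at 3 weeks. The 8-week and TNF values share their WT libraries. Near 259 and 240 kb, overlapping regions lay below WT at 3 weeks and above WT at 8 weeks, with groups that did not overlap at either age. These were also the directions of most listed autosomal regions in the range of WT means of Ttn at each age. In 1 further place, the region that rose at 11 weeks (76600851 to 76601400) ends 200 bp before the one that fell with TNF (76601601 to 76602100).

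Thin filament genes gave few regions, and 1 of these held the lowest fold change of all 60. Tnni2 encodes the inhibitory subunit of troponin in fast muscle fibres. Its region at chromosome 7, 149628751 to 149629600, was listed with TNF only. It was annotated as a promoter region, with its midpoint 0.80 kb past the start and thus inside the gene. TNF-treated libraries had 2.99 (libraries 1 and 2) and 0 normalized reads, and WT libraries had 21.40, 16.76 and 14.74. The groups did not overlap, and the value fell (log2 fold change -3.21, SE 0.62, limma adjusted p = 0.0109; -2.68 after rescaling, adjusted p = 0.00417). In recovered reads this was 3 against 59, a 10.8-fold lower value with a 95% exact counting interval from 3.52 to 53.9. Such intervals cover counting error only, and they treat each read as independent. Among low read numbers more were even than odd in every library. Reads are thus not independent molecules, and the intervals may be too narrow even for counting error. The call passed without each library in turn. The nearest other listed region, at Syt8 and 9 kb away, fell as well (-1.48, adjusted p = 0.0252), and of 18 other regions listed within 1 Mb 4 rose and 14 fell. Of all regions listed with TNF 64.1% fell.

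Neb was listed at 3 weeks only, with 2 regions on chromosome 2 that both fell slightly. At 52061301 to 52061950 Tg197 libraries had 132.84, 146.15 and 144.40 normalized reads and WT libraries 174.65, 190.94 and 177.22. The groups did not overlap (log2 fold change -0.36, SE 0.08, limma adjusted p = 0.00246). At 52146351 to 52146850 the values were 147.95, 143.32 and 153.30 against 187.80, 161.08 and 167.00 (log2 fold change -0.21, adjusted p = 0.0339). This second call was lost without Tg197 library 1 or 2 or WT library 1 (adjusted p from 0.0658 to 0.165) and after rescaling (adjusted p = 0.0860).

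Thick filament genes were listed at 8 weeks and with TNF. Mybpc2, the fast form of myosin-binding protein C, fell in Tg197 cells at chromosome 7, 51770451 to 51770950. Tg197 libraries had 6.63, 2.77 and 1.47 normalized reads against 12.68, 14.23 and 13.26 in WT, without overlap (log2 fold change -1.80, SE 0.52, limma adjusted p = 0.0428). The loss rests on 10 reads against 46, and did not pass without any 1 of 5 libraries, all except Tg197 library 2 (adjusted p from 0.0602 to 0.134). A different Mybpc2 region, at 51764751 to 51765700, rose with TNF. TNF-treated libraries had 124.43 and 157.46 normalized reads there and WT libraries 75.34, 86.84 and 90.92 (log2 fold change 0.73, SE 0.16, adjusted p = 0.0109). Around it 25 of 29 other regions listed within 1 Mb fell, where 64.1% of all regions listed with TNF fell. Before rescaling this gain thus ran against most listed regions, near and far. After rescaling it stood at 1.57, and 77.5% of all regions that passed with TNF were gains.

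Myh3 encodes the embryonic myosin heavy chain and had 1 region, listed with TNF, at chromosome 11, 66896951 to 66897900. TNF-treated libraries had 179.18 (libraries 1 and 2) and 101.67 normalized reads, and WT libraries had 102.74, 101.31 and 92.15. The second distinct TNF-treated library lay within the WT range, and the region did not pass (log2 fold change 0.45, SE 0.21, limma adjusted p = 0.0649). It passed after rescaling, when it stood at 1.29 (adjusted p = 0.00166), and with each identical library counted (adjusted p = 0.0255). It also passed with a pseudocount of 5 (adjusted p = 0.0477), with limma voom (adjusted p = 0.0458) and without TNF-treated library 3 (adjusted p = 0.0343). Myh3 lies in a cluster of muscle myosin genes, of which 4 others were listed with TNF and are named here after their values were seen. Myh2 (0.58, from 127.3 to 191.7 normalized reads) and Myh4 (0.77, from 56.8 to 97.8) rose. Myh8 (-0.64, from 84.7 to 55.4) and Myh13 (-1.53, from 28.3 to 9.20) fell. Before rescaling the cluster thus held changes in both directions. Rescaling, which took out a difference of -0.85 between the groups, was not followed for these 4 genes.

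Actn2 had 3 regions on chromosome 13, 43.9 to 57.8 kb from the start. At 3 weeks the region at 12374901 to 12375450 rose, with 95.04, 120.69 and 101.87 normalized reads in Tg197 and 61.03, 74.20 and 68.16 in WT (log2 fold change 0.63, SE 0.13, limma adjusted p = 0.00184). In the same libraries the region at 12388801 to 12389350 fell, with 135.00, 134.83 and 117.70 against 215.97, 165.60 and 184.04 (log2 fold change -0.54, SE 0.10, adjusted p = 0.00164). Neither pair of groups overlapped. With TNF the region at 12386551 to 12387150 rose from 47.95, 38.85 and 33.17 in WT to 73.66 and 55.79 (log2 fold change 0.68, SE 0.24, adjusted p = 0.0192), a call lost without TNF-treated library 1 (adjusted p = 0.149).

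**Figure D3:**
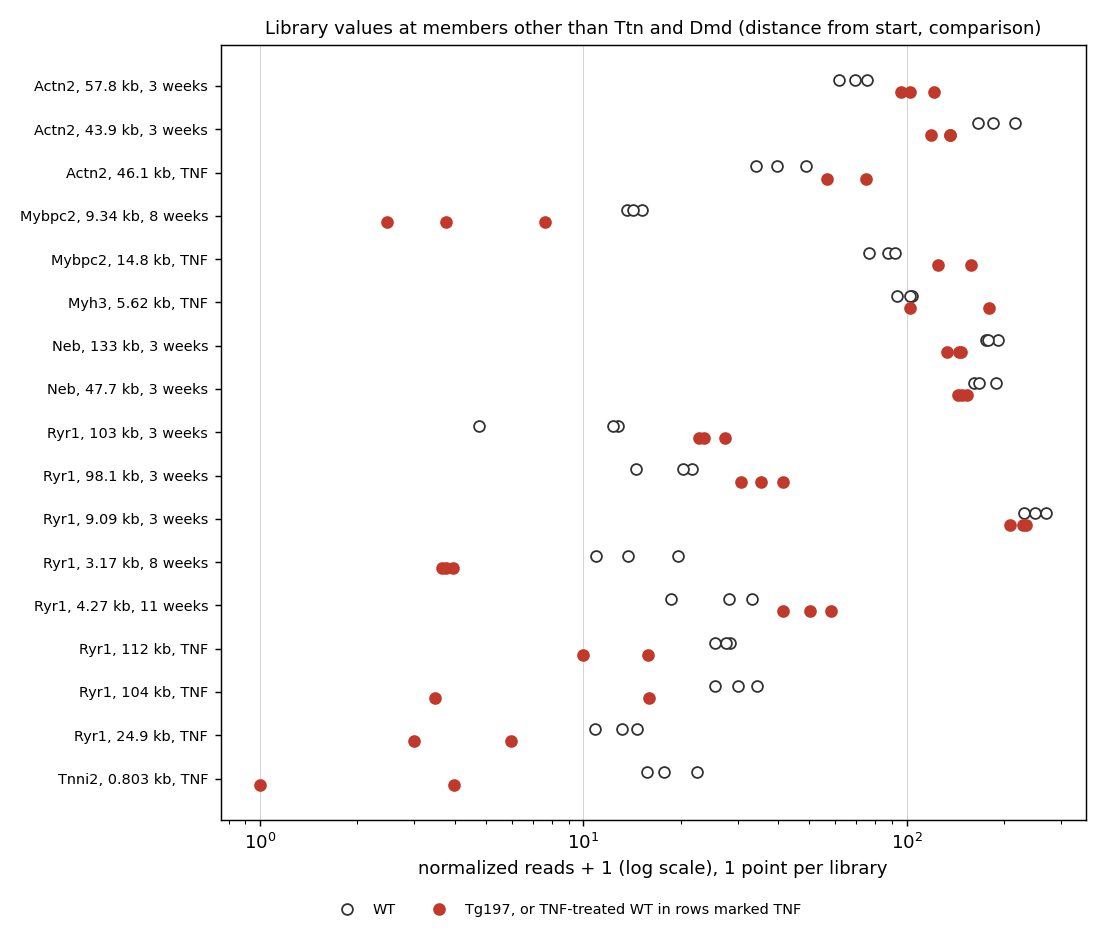
Normalized reads + 1 (log axis) of each library at the regions of Actn2, Mybpc2, Myh3, Neb, Ryr1 and Tnni2, labelled by distance from the start and comparison, with WT as open and Tg197 or TNF-treated cells as filled points (2 distinct TNF-treated libraries). The groups overlap at Myh3 and at the Ryr1 region 9.09 kb from the start, and the lowest value, 0, is that of 1 TNF-treated library at Tnni2.

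Ryr1, the calcium release channel of the sarcoplasmic reticulum, had 8 regions on chromosome 7, of which 3 rose, 4 fell and 1 did not pass. At 3 weeks 2 regions deep in the gene rose. At 29807301 to 29807800 Tg197 libraries had 22.68, 26.40 and 21.76 normalized reads against 3.76, 11.76 and 11.36 in WT (log2 fold change 1.43, SE 0.37, limma adjusted p = 0.00299). At 29811801 to 29812300 the values were 34.56, 40.54 and 29.67 against 20.66, 13.57 and 19.31 (log2 fold change 0.94, SE 0.26, adjusted p = 0.00377). All Tg197 values were above all WT values at both. The region at 29900801 to 29901350, 9.09 kb from the start, had far more reads (222.9 ± 13.7 in Tg197 and 249.3 ± 20.01 in WT, SD, n = 3 each) and did not pass (log2 fold change -0.16, adjusted p = 0.0694).

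Closest to the promoter window shown above were 2 regions listed at different ages. At 8 weeks the region at 29906701 to 29907300, 3.17 kb from the start, had 2.65, 2.77 and 2.94 normalized reads in Tg197 and 18.60, 12.73 and 9.95 in WT. It fell (log2 fold change -1.92, SE 0.43, limma adjusted p = 0.0428) on 8 reads against 48, a 5.05-fold lower value with a 95% exact counting interval from 2.37 to 12.4. The call was lost without any 1 of Tg197 libraries 1 and 3 and WT libraries 1 and 2 (adjusted p from 0.0726 to 0.134). At 11 weeks the region at 29905601 to 29906200, 4.27 kb from the start and 500 bp from the other, had 57.44, 49.25 and 40.52 in Tg197 and 27.20, 17.68 and 32.16 in WT. It rose (log2 fold change 0.93, SE 0.29, adjusted p = 0.0219), but did not pass after rescaling, at 0.67 (adjusted p = 0.0696). The difference between the ages was not tested, since the regions do not overlap and the tables were normalized separately.

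With TNF all 3 Ryr1 regions fell. At 29806101 to 29806600 TNF-treated libraries had 14.93 and 2.48 normalized reads and WT libraries 29.11, 33.52 and 24.57 (log2 fold change -2.003, SE 0.57, limma adjusted p = 0.0110). At 29798201 to 29798750 the values were 8.96 and 14.88 against 27.40, 26.66 and 24.57 (log2 fold change -1.11, adjusted p = 0.0136). At 29885051 to 29885550 they were 1.99 and 4.96 against 13.70, 12.19 and 9.83 (log2 fold change -1.60, adjusted p = 0.0140), on 6 reads against 40. No group overlapped. None of the 3 passed after rescaling, at -1.24, -0.31 and -0.89 (adjusted p = 0.0682, 0.428 and 0.148). The last 2 also did not pass without TNF-treated library 1, nor the third without WT library 1. Of the 37 other regions listed within 1 Mb of them 30 fell and 4 rose. At 8 weeks 10 of the 16 other regions within 1 Mb fell and 1 rose, while at 3 weeks 18 of 40 rose and 14 fell. The falls with TNF were not particular to this stretch of chromosome 7. In the range of WT means of the 3 Ryr1 regions (11.9 to 29.1), 6174 of 6717 listed autosomal regions fell with TNF and 499 rose.

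Dmd, on the X chromosome, had 13 regions, of which 5 rose, 2 fell and 6 did not pass. At 3 weeks the region at 81079451 to 81080050 rose from 11.27, 9.05 and 15.90 normalized reads in WT to 33.48, 20.74 and 31.65 in Tg197 (log2 fold change 1.18, SE 0.30, limma adjusted p = 0.00289). The region at 81852651 to 81853150 fell from 177.47, 171.03 and 198.81 to 141.47, 158.40 and 138.47 (log2 fold change -0.32, SE 0.09, adjusted p = 0.00440). Groups did not overlap at either. Of the 535 X regions listed at 3 weeks 229 rose and 170 fell.

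At 8 weeks all 6 Dmd regions had higher means in Tg197 cells and none passed limma with adjustment, while 2 had an unadjusted p under 0.05, and none passed limma voom on recovered reads. At 81092901 to 81093550, 899 kb from the start, Tg197 libraries had 266.42, 91.34 and 220.63 normalized reads against 87.94, 80.90 and 118.27 in WT (log2 fold change 0.89, SE 0.40, limma adjusted p = 0.0846). At 82293551 to 82294200 they had 116.64, 44.98 and 120.61 against 51.58, 55.43 and 48.63 (log2 fold change 0.72, SE 0.39, adjusted p = 0.126). Tg197 libraries 1 and 3 stood above every WT library at all 6 regions, and library 2 stood within or near the WT range. Groups overlapped at 5 of the 6. After rescaling 3 of the 6 passed, those at 81092901, 81542101 and 81725451 (adjusted p from 0.0460 to 0.0478). Without Tg197 library 2, 5 of the 6 passed, with log2 fold changes from 0.80 to 1.35.

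The X regions as a whole showed the same split between libraries. Of 981 X regions listed at 8 weeks, 927 had a higher mean in Tg197 cells, 80 were gained and 42 lost. As a median over these X regions, the log2 ratio to the WT mean was 1.14 in Tg197 library 1, -0.10 in library 2 and 0.74 in library 3. Over the 6 Dmd regions it was 1.10, 0.05 and 0.70. Over autosomal regions it was -0.61, -0.56 and -0.64, so the 3 libraries differed little in this median. Their summed normalized reads over autosomal regions did differ, at 1037710, 681560 and 830943. In WT libraries these sums were 731608 to 760480. Library 2 was thus the lowest of the 3 Tg197 libraries in autosomal sums as well. The order of the Tg197 libraries was thus the same at Dmd as over the X chromosome, and what sets library 2 apart was not tested. All 7 other regions listed within 1 Mb of the Dmd regions had means above WT, and none passed.

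**Figure D4:**
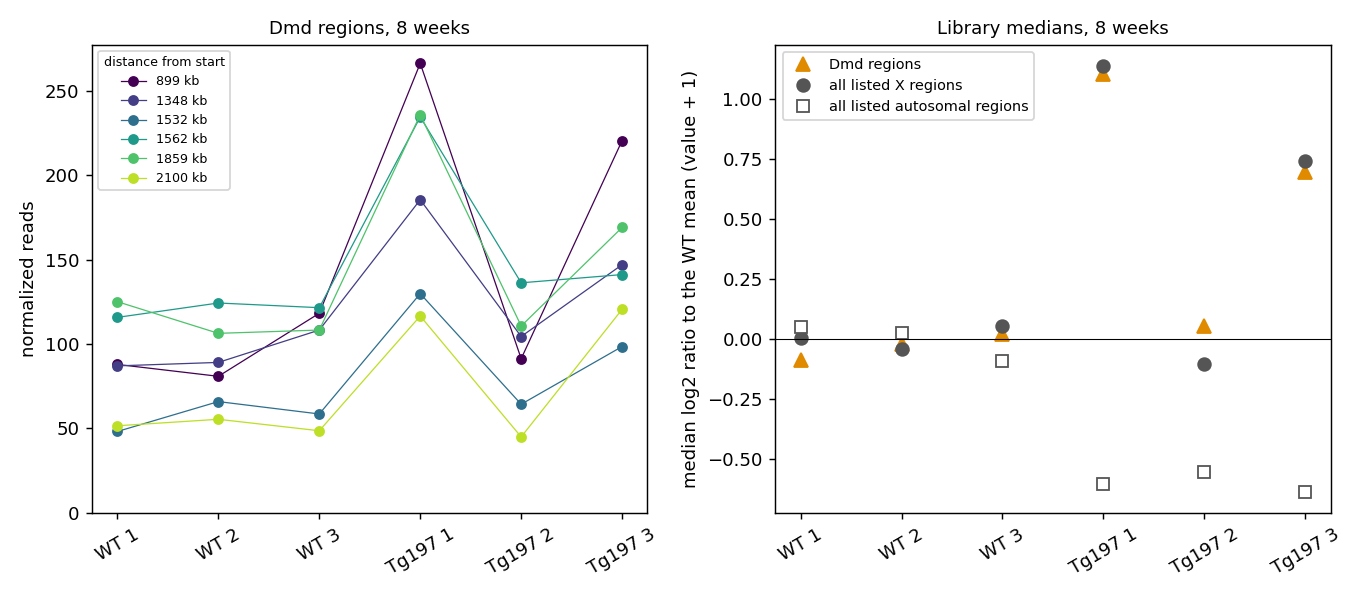
Left, normalized reads of the 6 Dmd regions at 8 weeks in each library, 1 line per region named by its distance from the start. Right, the median per library of the log2 ratio (value + 1) to the mean of WT, over the Dmd regions, all listed X regions and all listed autosomal regions. Tg197 libraries 1 and 3 lie at 1.10 and 0.70 for Dmd and library 2 at 0.05, next to 1.14, 0.74 and -0.10 for the X regions.

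At 11 weeks the single Dmd region, at 80222501 to 80223000 and 28.5 kb from the start, fell. WT libraries had 89.75, 51.19 and 48.72 normalized reads and Tg197 libraries 31.91, 25.20 and 25.86, with no overlap (log2 fold change -1.12, SE 0.29, limma adjusted p = 0.0219). WT library 1 was the highest, and it was also the highest over the 199 listed X regions, with a median log2 ratio of 0.50 against -0.48 and -0.21 in the other WT libraries and -0.54 to -0.75 in Tg197. Without that library the Dmd loss still passed.

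With TNF all 4 Dmd regions rose. The largest fold was at 81093501 to 81094000, with 84.61 and 101.67 normalized reads in TNF-treated libraries and 25.69, 37.32 and 73.72 in WT (log2 fold change 1.14, SE 0.36, limma adjusted p = 0.0133). At 81853151 to 81853750, where reads were most, values were 508.68 and 505.86 against 423.81, 354.21 and 405.47 (log2 fold change 0.37, SE 0.10, adjusted p = 0.0110). The regions at 80733151 and 81092851 rose by 0.71 and 0.91 on the log2 scale. Both distinct TNF-treated libraries stood above all WT libraries at all 4. Of 603 X regions listed with TNF 440 rose and 116 fell, so here too Dmd went with most X regions. Leaving out TNF-treated library 3 ended the calls at 81092851 and 81093501, and leaving out TNF-treated library 1 or WT library 2 that at 80733151. The region at 81092851 to 81093350 overlaps the one at 81092901 of the 8-week table, with which it shares WT libraries, and stood at 0.91 where that stood at 0.89. Directly beside the TNF gain at 81853151, the region ending at 81853150 had fallen at 3 weeks.

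A list of 105 further muscle genes shows where the 10 genes stand among their kind. Regions were listed for 69 of them, 184 in all. At 3 weeks 21 of 49 rose and 18 fell, where 40.3% of all listed regions rose and 44.7% fell. At 8 weeks 5 of 46 rose and 21 fell, beside 17.4% and 36.6% of all regions. At 11 weeks 14 of 21 rose and 5 fell, beside 49.7% and 28.2%, and with TNF 16 of 68 rose and 49 fell, beside 29.8% and 64.1%. Their median log2 fold changes were -0.04, -0.94, 1.02 and -1.07, next to -0.13, 0.45, 0.93 and 0.45 for the 10 genes. Over all listed regions the median was -0.22 at 8 weeks and -1.08 with TNF, so the further genes stood below it at 8 weeks and close to it with TNF. After rescaling the TNF count of the further genes was 18 gained and 6 lost. None of their regions passed at 8 weeks without any 1 of Tg197 libraries 1 and 3 and WT libraries 1 and 2, nor at 11 weeks without Tg197 library 1 or 3 or WT library 2, although 15 to 30 kept an unadjusted p under 0.05 in limma.

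By role, the calcium release group (Ryr2, Casq2, Cacna1s and others) had 6 of 11 regions, in 7 genes, gained and 3 lost at 3 weeks. At 11 weeks it had 6 of 6 gained, in only 3 genes. Such gains were not particular to it. Genes of the membrane complex and synapse had 4 of 7 gained and 3 lost at 3 weeks, and thin filament genes 3 of 3 gained at 11 weeks. Of all listed regions, 40.3% and 49.7% rose at these ages. At 8 weeks genes of Z-disc and M-band scaffolds had 0 of 11 gained and 6 lost, beside 17.4% and 36.6% of all regions. Not every role is given for each comparison. Genes of the membrane complex and synapse had 1 of 5 gained and 3 lost at 11 weeks, where 28.2% of all listed regions fell. With TNF the calcium release group had 3 of 11 gained and 8 lost, and thin filament genes 1 of 13 gained and 11 lost. Genes of the membrane complex and synapse had 4 of 15 gained and 11 lost with TNF, beside 29.8% and 64.1% of all regions.

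The genes with the smallest adjusted p-values are described next, and since many regions shared the smallest value in a table (19 at 8 weeks, 12 at 11 weeks and 26 with TNF), such ties were ordered by unadjusted p. At 3 weeks these were Jph2, a junctophilin that ties the membranes of calcium release together (-0.45, promoter), Speg, a muscle kinase (-0.51), Tpm2, a tropomyosin (1.00, promoter), and Myh14, a non-muscle myosin (-0.51). The Tpm2 region had 74.52, 79.20 and 75.17 normalized reads in Tg197 and 30.05, 44.34 and 39.76 in WT, with groups far apart (limma adjusted p = 0.00149). At 8 weeks the myosin gene Myh7b (-1.79), Mstn, the inhibitor of muscle growth (-3.44, 6 reads against 68), and Dysf, a membrane repair gene (-1.87), fell. Sgcd, a sarcoglycan of the dystrophin complex, had 3 regions at 8 weeks, of which 2 rose and 1 fell (from -1.34 to 1.46).

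At 11 weeks Utrn, the relative of dystrophin, had 1 region that fell (-1.26) and 1 that rose (1.496). The region that fell had 10.37, 9.16 and 11.21 normalized reads in Tg197 and 28.56, 26.06 and 23.39 in WT, without overlap (limma adjusted p = 0.0219). Casq2, a calcium store protein, rose in 2 of 2 regions (1.02 and 1.195), Ryr2, the cardiac relative of Ryr1, in 3 of 3 (0.90 to 1.205) and Tpm2 in 1 (1.76). With TNF 5 of 5 Speg regions fell (-1.20 to -0.38), where 64.1% of all listed regions fell, and Myh2 rose (0.58). Rescaling, which took out a difference of -0.85 between the groups with TNF, was not followed for single genes of this list. Of 2 regions of Ldb3, a Z-disc gene, 1 rose (0.65) and the other did not pass (-0.24). The Nebl region, at a relative of nebulin, had 9.95 and 11.16 normalized reads in TNF-treated libraries and 0, 1.52 and 0 in WT, which is 19 reads against 2 (limma adjusted p = 0.0109).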

How the data were processed

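Methylated DNA from 21 samples was captured with a methyl-CpG-binding protein after sonication to about 250 bp and sequenced as paired reads of 100 bp, per the labels' protocols. BWA, TopHat, TopHat2, Cufflinks, Cuffdiff and the build mm9 appear in the submitters' processing notes with no role given, and which program compared the groups is not given in the sources used here. In all, 4 tables were deposited, of regions selected for a difference between 2 groups. Their signal columns hold the mean normalized reads of a group, per the file headers. The deposited log2 fold change is that of the means, and each region has p-values from the authors, none of which was used in the tests here. Library values stand packed in 1 cell, in an order that carries no replicate number. The treatment columns were taken to hold Tg197 or TNF-treated libraries, and 0 columns were left unassigned.

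Values were tested as log2(value + 1) with limma 3.58.1 (R 4.3.3, eBayes with a mean trend, two-sided) on all regions of each table, within tables because these were normalized separately, with Benjamini-Hochberg adjustment and no filter on low values. Reads were recovered as whole multiples (within 0.1) of each library's step. Between 57.0% and 68.4% of read numbers up to 20 were even, so reads are not independent molecules. The scripts were tested on simulated data. Alternatives were the pseudocount, a filter, limma voom on recovered reads, rescaling, and leaving out each library. The members and lists were chosen with earlier results of these data known. All regions of the 10 genes are described, and from the list of 105 genes the 4 with the smallest adjusted p per table are named, with ties ordered by unadjusted p, an order chosen after the values were seen.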

Additional observations from a re-analysis of the deposited data

Results flagged for a closer look

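Overlapping Ttn regions moved in opposite directions at 2 ages: every Tg197 library lay below the WT mean at 3 weeks and above it at 8 weeks. Near 259 kb from the start the log2 fold change was -0.21 at 3 weeks (76561051 to 76561600) and 0.37 at 8 weeks (76560851 to 76561350). Near 240 kb it was -0.17 at 3 weeks (76580401 to 76580900) and 0.42 at 8 weeks (76580351 to 76581250). The 3-week values passed and the 8-week values did not (limma adjusted p = 0.0695 and 0.0775). Neither 3-week value passed after rescaling (limma adjusted p = 0.102 for each), and leaving out any of several single libraries also ended each call. Most listed autosomal regions in the range of WT means of Ttn had the same directions. A higher value in Tg197 cells was found for 9.498% of them at 3 weeks and 66.0% at 8 weeks. The difference between the ages was not tested, since the tables were normalized separately and the region boundaries differ.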

How the results depend on the processing

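No paired analysis was possible because the values of a group carry no replicate number. With a pseudocount of 0.1, limma passed 0 muscle gene regions at 8 weeks (11 at an unadjusted p under 0.05, 3 with limma voom) and 0 of the further muscle genes (33 unadjusted). Rescaling gave 7 muscle gene regions at 8 weeks and 24 regions of the further genes with TNF. Leaving out 1 library gave 0 to 14 muscle gene regions at 8 weeks, 0 to 4 at 11 weeks and 11 to 19 with TNF. For the further genes it gave 0 to 33, 0 to 18 and 40 to 65. At 3 weeks it gave 11 to 13 and 37 to 40. Within 0.2 Mb instead of 1 Mb of muscle gene regions, 12.5% of other regions lay above 0 at 8 weeks (41.2% within 1 Mb) and 18.2% with TNF (29.6%). Ttn and Dmd had 0 other listed regions within 0.2 Mb in either comparison, so the shares at that distance cover neither gene. At 8 weeks that share rests on 5 regions near Ryr1 and 3 near Mybpc2. The Ttn region at 76807751 turned at 3 weeks, to 0.031 after rescaling, and ranged from -0.066 to 0.011 on leaving out 1 library. Depth limits the regions with at most 10 reads in the lower group, 5 of 60. Labels and headers alone assign the groups, and no region outside the lists has a value.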
